A study of Mus musculus with 8 samples.

Results

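The proliferin genes *Prl2c2*, *Prl2c3* and *Prl2c5* were examined in RNA-seq data of the mouse line C3H10T1/2, mesenchymal stem cells (MSCs) that can become fat cells. The members were chosen by their gene symbols, 3 of the 41325 symbols listed for each library. *Prl2c2* had drawn attention in the same data because it was lower by more than 2-fold at day 5 than at day 0 in control cells, more than 2-fold above control cells at day 5 in each knockdown line, and at an RPKM of at least 5 there. Its values in those comparisons are therefore a description and were not tested, and the other comparisons share libraries with them. The 8 libraries came from control cells (shControl, labelled as wild type) and from knockdowns of KDM4D, NFIB and MLL1 (shKDM4D, shNFIB and shMLL1), each sequenced once before (day 0) and once after (day 5) adipogenic induction. The authors describe pLKO.1 short hairpin RNA vectors and isolation of puromycin-resistant clones for the knockdown lines. How the control cells were made is not described there. The effect of a knockdown thus cannot be told apart here from the properties of a clone or from vector and selection. Day 0 was 2 days after confluence. All 4 lines received 10 µg/ml insulin, 1 µM dexamethasone (a glucocorticoid) and 0.5 mM isobutylmethylxanthine until day 2, then insulin for 2 days, then medium with serum only, so that day 5 was past the hormone treatment. KDM4D is a histone H3K9 demethylase, NFIB a sequence-specific transcription factor and MLL1 (encoded by *Kmt2a*) a histone H3K4 methyltransferase.

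Proliferin, also called mitogen-regulated protein, is a secreted glycoprotein of the prolactin and placental hormone family. Trophoblast giant cells of the placenta are its best known source, and it was found in cultured mouse fibroblasts that had been stimulated with serum. It promotes the growth of blood vessels, blocks muscle differentiation and binds the cation-independent mannose 6-phosphate receptor (*Igf2r*). The proliferin promoter is a textbook example of a composite element, where AP-1 and the glucocorticoid receptor act on the same stretch of DNA.

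The 3 genes lie on chromosome 13 of the GRCm38 build and are annotated as protein coding with 5 exons each. *Prl2c3* (ENSMUSG00000056457.6) spans chr13:12790816-12800079 and *Prl2c2* (ENSMUSG00000079092.4) spans chr13:12996125-13005383, both on the minus strand. *Prl2c5* (ENSMUSG00000055360.13) spans chr13:13182715-13191923 on the plus strand. The gene of prolactin itself, *Prl*, starts at 27057570 on the same chromosome, away from these copies. The copies are close to identical. The coding sequences of *Prl2c2* and *Prl2c3* had 675 bases each and differed at 3 positions, a sequence identity of 99.56%. These were T14C in exon 1, C200A in exon 2 and T319G in exon 4, with the *Prl2c2* base given before the position, counted from the A of the start codon, and the *Prl2c3* base after it. Each of the 3 changed the encoded residue, out of 224. The coding sequence of *Prl2c5* had 669 bases and differed from that of *Prl2c2* at 20 positions, with a further 6 bases missing (96.15% identity).

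A pair of stretches of exon 4 are shown because they make visible which reads could and could not be told apart. The longest coding stretch within 1 exon that all 3 genes share had 90 bases, at coding positions 377 to 466 (chr13:12997317-12997406 in *Prl2c2*, chr13:12792024-12792113 in *Prl2c3*, chr13:13190647-13190736 in *Prl2c5*, each read along the gene):
shared by the 3 genes: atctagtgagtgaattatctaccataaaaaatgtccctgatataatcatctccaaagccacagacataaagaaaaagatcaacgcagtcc
A 90-base window of the same exon that holds a difference between *Prl2c2* and *Prl2c3* covers coding positions 316 to 405 (chr13:12997378-12997467, chr13:12792085-12792174 and chr13:13190586-13190675). Capitals mark the 5 positions at which the 3 genes are not all alike, of which 1 separates *Prl2c2* from *Prl2c3*.
Prl2c2: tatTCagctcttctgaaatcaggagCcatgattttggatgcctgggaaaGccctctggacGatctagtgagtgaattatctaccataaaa
Prl2c3: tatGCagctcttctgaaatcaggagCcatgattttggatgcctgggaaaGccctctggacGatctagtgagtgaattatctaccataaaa
Prl2c5: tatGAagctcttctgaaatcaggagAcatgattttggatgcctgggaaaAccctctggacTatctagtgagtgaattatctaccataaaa
A read from the first stretch fits the 3 genes equally well, and a read from the second can be placed on *Prl2c2* or *Prl2c3* only where it covers position 319, by that 1 base. Over all annotated transcripts, 71.5% of the 50-base windows of *Prl2c2* also occurred in *Prl2c3*, and 51.9% of its 100-base windows did. For *Prl2c5* these shares with *Prl2c2* were 21.5% and 4.94%. The pseudogene *Gm7040* on the same chromosome holds 16.6% of the 50-base windows of *Prl2c2* and was not analysed here. The read length and the treatment of reads that match several genes are not given in the sources used here. C3H10T1/2 cells come from C3H mice and the reference from C57BL/6 mice, and the part of strain differences in the assignment of reads was not tested.

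The upstream sequences of *Prl2c3* and *Prl2c5* are alike as well, and their part in the levels of the genes was not tested. RefSeq promoter entries (GRCm38.p6) were matched for 2 of the 3 genes. None was matched for *Prl2c2*, the most abundant copy, so that the motif statements below do not cover it. Of *Prl7d1*, the proliferin-related protein of the main prolactin cluster, 1 of 2 entries is set beside them. The 250 bases before the start are printed for *Prl2c3* (chr13:12800080-12800329, minus strand), *Prl2c5* (chr13:13182466-13182715, plus strand) and *Prl7d1* (chr13:27716737-27716986, minus strand), with capitals for the TATA box and the AP-1 motif.
Prl2c3: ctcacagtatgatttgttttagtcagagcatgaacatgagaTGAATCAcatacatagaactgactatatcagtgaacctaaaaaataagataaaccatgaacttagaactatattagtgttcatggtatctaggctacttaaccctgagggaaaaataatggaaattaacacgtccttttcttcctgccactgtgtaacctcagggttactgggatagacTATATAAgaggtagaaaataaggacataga
Prl2c5: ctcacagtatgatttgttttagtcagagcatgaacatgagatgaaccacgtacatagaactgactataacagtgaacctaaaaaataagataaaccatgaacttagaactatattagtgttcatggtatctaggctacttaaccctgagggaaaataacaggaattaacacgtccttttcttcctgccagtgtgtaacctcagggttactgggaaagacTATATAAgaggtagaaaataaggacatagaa
Prl7d1: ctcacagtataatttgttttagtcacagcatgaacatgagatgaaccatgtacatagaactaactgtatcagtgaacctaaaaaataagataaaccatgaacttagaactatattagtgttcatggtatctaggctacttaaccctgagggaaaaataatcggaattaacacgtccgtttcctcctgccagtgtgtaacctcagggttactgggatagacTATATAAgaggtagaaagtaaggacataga
In the 300-base entries, which run to 50 bases after the start, *Prl2c3* and *Prl2c5* were 95.4% identical, and *Prl2c3* and *Prl7d1* 95% identical. A TATA box (TATATAA, searched on both strands) began 30 bases before the start in *Prl2c3* and *Prl7d1* and 31 bases before it in *Prl2c5*. It occurs in 3.24% of the 32851 promoter entries of the mouse. The AP-1 motif TGANTCA, which reads the same on both strands, began 209 bases before the start in *Prl2c3* and was not in the other 2 windows. It occurs in 7.81% of all entries and overlapped no other motif searched. The glucocorticoid receptor core motif TGTTCT was searched on both strands and occurs in 19% of all entries. The CCAAT box, also searched on both strands, occurs in 37.4%. Neither was in any of the 3 windows. A match or its absence describes these letters only.

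Expression is given as RPKM (reads per kilobase of exon, scaled to the mapped reads of the library), as deposited by the authors. *Prl2c2* was by far the most abundant of the 3 genes. At day 0 its RPKM was 108 (shControl, 95% interval 104 to 112), 387 (shKDM4D, 379 to 395), 192 (shNFIB, 186 to 198) and 397 (shMLL1, 391 to 403). At day 5 it was 6.88 (shControl, 5.81 to 8.10), 25.4 (shKDM4D, 23.4 to 27.5), 16.9 (shNFIB, 15.0 to 19.0) and 14.8 (shMLL1, 13.6 to 16.0). Every day 0 library was thus above every day 5 library. In rank among all genes of a library, *Prl2c2* stood at place 347 (shControl) and 96 (shMLL1) at day 0, and at place 5347 and 3114 at day 5. The libraries held between 15800000 and 38200000 mapped reads, and whole reads could be recovered from the RPKM values. The *Prl2c2* values above rested on 3136, 8242, 3911 and 16537 reads at day 0 and on 145, 599, 292 and 613 reads at day 5, in the order of the lines given. The intervals of levels, ratios and shares are exact and cover counting error only, since no condition has a replicate library. In such bulk samples fewer expressing cells and less RNA per cell cannot be told apart.

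The other copies followed at much lower levels. *Prl2c3* had an RPKM of 0.635 (shControl), 9.33 (shKDM4D), 3.31 (shNFIB) and 7.41 (shMLL1) at day 0, from 23, 248, 84 and 385 reads. At day 5 its RPKM was 0.0761, 0.340, 0.278 and 0.251, from 2, 10, 6 and 13 reads. *Prl2c5* had an RPKM of 0.0957 (shControl), 1.09 (shKDM4D), 0.228 (shNFIB) and 0.378 (shMLL1) at day 0, from 3, 25, 5 and 17 reads. At day 5 it had 0 reads in shControl and shKDM4D cells, 2 reads in shNFIB cells and 3 in shMLL1 cells. As a floor for a count of 0, the level of 3 reads was an RPKM of 0.132 (shControl) and 0.118 (shKDM4D), and the exact two-sided 95% intervals ended at 0.162 and 0.145. Both minor copies were highest in shKDM4D cells at day 0, whereas *Prl2c2* was at the same level there as in shMLL1 cells within counting error. All 3 genes passed an RPKM of 1 in a library, but *Prl2c3* did so only in knockdown cells at day 0 and *Prl2c5* only in shKDM4D cells at day 0. Per kilobase of exon, *Prl2c2* exceeded *Prl2c3* by 170-fold in shControl cells at day 0 and by between 41.5-fold and 90.5-fold in the other 7 libraries.

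**Figure D1:**
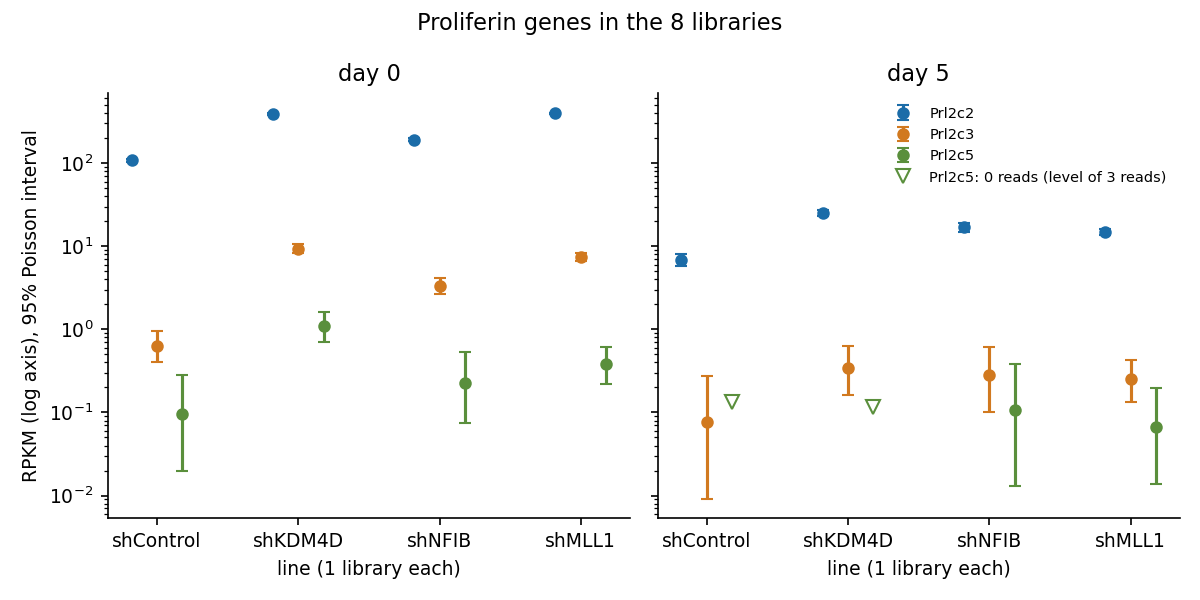
RPKM of *Prl2c2*, *Prl2c3* and *Prl2c5* (log axis) in the 4 lines at day 0 and day 5, with 1 library per point and 95% Poisson intervals; open triangles mark the level of 3 reads where *Prl2c5* had 0 reads. *Prl2c2* lies between 108 and 397 at day 0 and between 6.88 and 25.4 at day 5, above the other 2 genes in each library.

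From day 0 to day 5, *Prl2c2* fell in each of the 4 lines. The log2 ratio of day 5 to day 0 was -3.97 in shControl cells (95% interval -4.22 to -3.73), a level 15.7-fold lower. It was -3.93 (shKDM4D, -4.05 to -3.81), -3.51 (shNFIB, -3.68 to -3.33) and -4.75 (shMLL1, -4.87 to -4.63), or 15.2-fold, 11.4-fold and 26.9-fold lower. Among 11513 expressed genes (RPKM over 1 in a library), 8.56% were lower by more than 2-fold in shControl cells, 8.44% (shKDM4D), 4.96% (shNFIB) and 6.89% (shMLL1). Higher by more than 2-fold were 13%, 12.8%, 12.6% and 20.4%. Ranked from the largest fall, the *Prl2c2* ratio was at place 13 of 11405 genes above 0 at both days in shControl cells, 20 of 11349 (shKDM4D), 18 of 11358 (shNFIB) and 6 of 11406 (shMLL1). In shControl cells the fall belongs to what drew attention to the gene, and nothing is read from its place there.

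**Figure D2:**
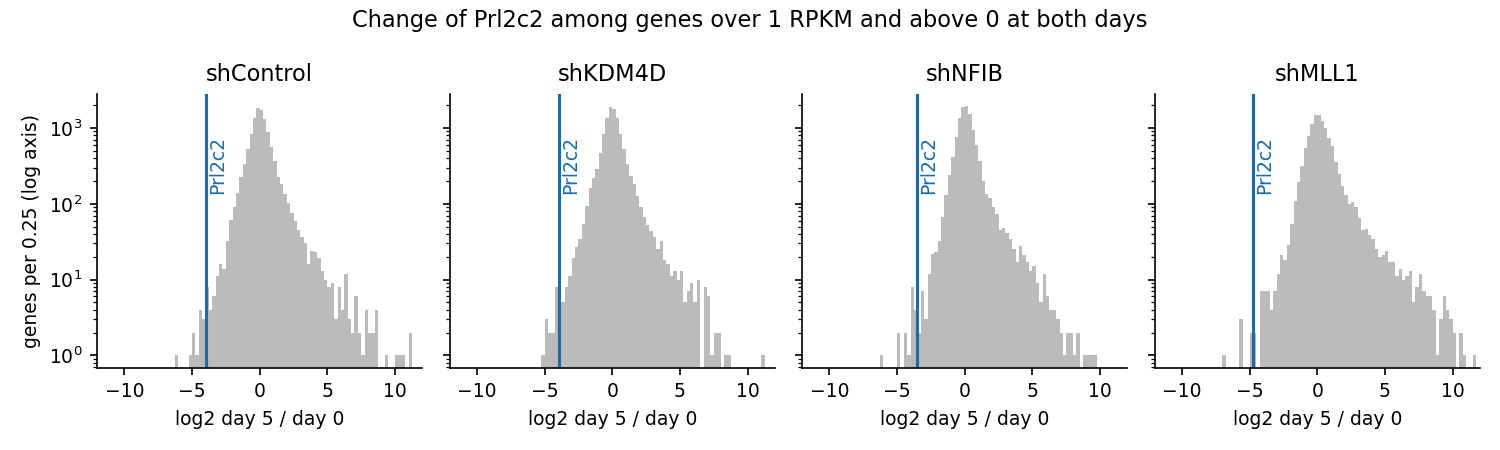
Number of genes (log axis, bins of 0.25) by log2 ratio of day 5 to day 0 in each line, for genes with an RPKM over 1 in a library and above 0 at both days. The line marks *Prl2c2*, at -3.97, -3.93, -3.51 and -4.75, in the lower tail of each panel.

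The size of the fall was compared between the lines for counting error only, as a description, since the spread between libraries of a condition is not known. Compared with shControl cells, the change of *Prl2c2* in shKDM4D cells differed by 0.04 on the log2 scale, with a 95% interval (normal approximation on the log scale) of -0.22 to 0.31 that includes 0. It was smaller by 0.47 in shNFIB cells (0.17 to 0.76). In shMLL1 cells the difference was -0.78 (-1.05 to -0.51), a larger fall. The median over all genes also moved from day 0 to day 5, by 0.03 (shControl), 0.03 (shKDM4D), 0.09 (shNFIB) and 0.17 (shMLL1). Against the *Gapdh* level of the same library the change was -3.94 (shControl), -3.46 (shKDM4D), -4.07 (shNFIB) and -4.87 (shMLL1). The fall in shNFIB cells was then no longer smaller than in shControl cells, and these values were close. In shKDM4D cells the fall was smaller than in shControl cells, beyond the interval given above. The fall in shMLL1 cells remained the largest. *Gapdh* was at an RPKM of 159 in shNFIB cells at day 0 and between 235 and 326 in the other 7 libraries. *Prl2c3* fell with *Prl2c2*, with log2 ratios of -3.06 (shControl, -6.19 to -1.04), -4.78 (shKDM4D, -5.86 to -3.87), -3.57 (shNFIB, -5.06 to -2.39) and -4.89 (shMLL1, -5.81 to -4.09). Adding 1 to each RPKM brought the *Prl2c3* change in shControl cells to -0.60, less than 2-fold. *Prl2c5* went from 25 reads to 0 in shKDM4D cells, at least 9.22-fold lower when the 0 is set to a floor of 3 reads, and the exact 95% interval of its log2 ratio ended at -2.80. It changed by -2.50 (-4.91 to -0.71) in shMLL1 cells. In shControl and shNFIB cells a change of *Prl2c5* was not detectable at this depth.

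Before induction, *Prl2c2* was higher in each knockdown line than in shControl cells. At day 0 the log2 ratio to shControl cells was 1.84 (shKDM4D, 1.78 to 1.90), 0.83 (shNFIB, 0.76 to 0.90) and 1.88 (shMLL1, 1.82 to 1.93). All 3 ratios use the same shControl library and cannot be taken as separate observations. More than 2-fold higher than shControl cells at day 0 were 1.98% of all 11513 genes in shKDM4D, 2.95% (shNFIB) and 1.67% (shMLL1), and more than 2-fold lower were 4.26%, 6.05% and 7.43%. The shNFIB value stayed under 2-fold, except as a ratio to *Gapdh*, where it was 1.47. At day 5 the log2 ratio of *Prl2c2* to shControl cells was 1.89 (shKDM4D, 1.62 to 2.16), 1.30 (shNFIB, 1.01 to 1.59) and 1.10 (shMLL1, 0.84 to 1.37). The background at day 5 was 1.88%, 5.54% and 5.25% of genes higher and 4.57%, 5.67% and 4.02% lower, and nothing is read from it for *Prl2c2*, which was picked in this comparison. As a ratio to *Gapdh* the shMLL1 value at day 5 was 0.74, under 2-fold.

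In the order of the *Prl2c2* levels, shMLL1 and shKDM4D cells at day 0 did not differ beyond counting error (0.04, -0.0009 to 0.08). Both lay above shNFIB cells, by 1.01 (0.95 to 1.06) for shKDM4D cells, and shNFIB cells lay above shControl cells. At day 5 shKDM4D cells were highest, 0.59 (0.38 to 0.80) above shNFIB cells. The shNFIB and shMLL1 cells did not differ beyond counting error (0.20, -0.01 to 0.40), and shControl cells were lowest. The shMLL1 cells thus shared the highest level at day 0 and stood level with shNFIB cells at day 5. As ratios to *Gapdh* the day 0 levels over shControl cells were 1.67 for shMLL1, 1.47 for shNFIB and 1.44 for shKDM4D, which puts shNFIB beside shKDM4D cells. The *Prl2c2* level of each knockdown line at day 5, at most 25.4, remained below the shControl level of 108 at day 0.

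**Figure D3:**
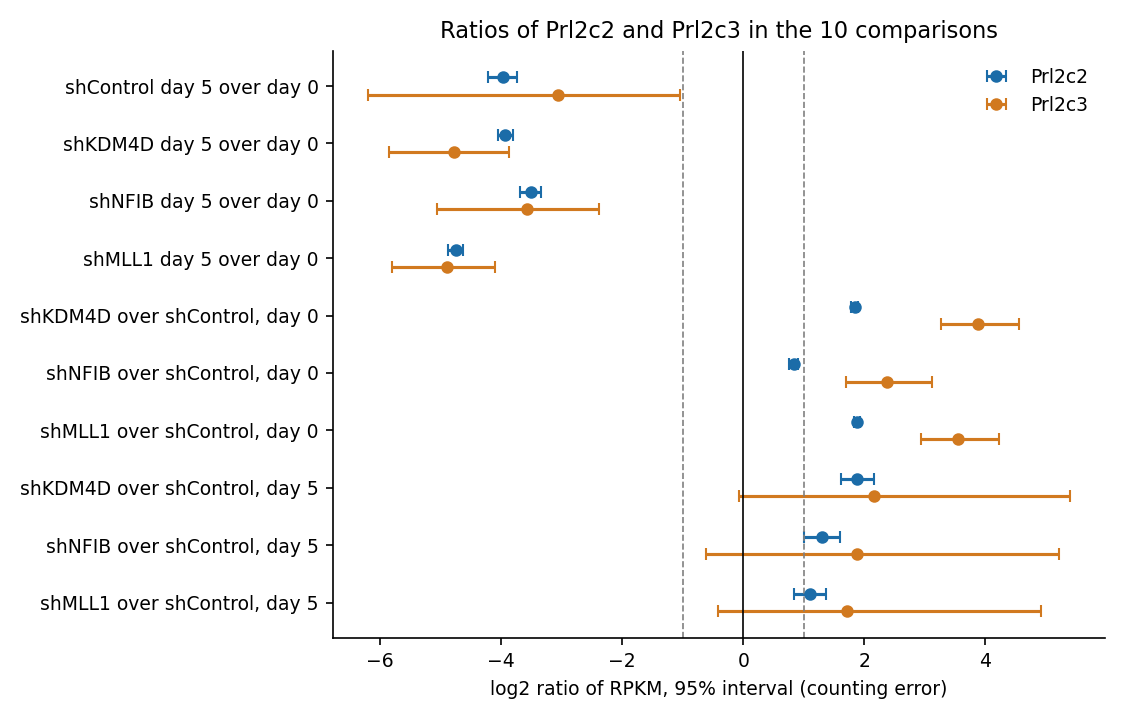
Log2 ratios of RPKM for *Prl2c2* and *Prl2c3* in the 10 comparisons, with 95% intervals for counting error; dashed lines mark 2-fold. *Prl2c2* lies between -4.75 and -3.51 for day 5 over day 0 and between 0.83 and 1.89 for knockdown over shControl cells, and *Prl2c3* exceeds it in the 3 knockdown comparisons at day 0.

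The excess over shControl cells at day 0 was larger for *Prl2c3* than for *Prl2c2*. The log2 ratio of *Prl2c3* to shControl cells was 3.88 (shKDM4D, 3.26 to 4.56), 2.38 (shNFIB, 1.70 to 3.12) and 3.55 (shMLL1, 2.94 to 4.22), and none of these intervals overlaps that of *Prl2c2* in the same line. *Prl2c5* had a ratio of 3.51 (shKDM4D, 1.79 to 5.88) and 1.98 (shMLL1, 0.19 to 4.40). In shNFIB cells its ratio was 1.25 (-1.11 to 3.94). At day 5 the *Prl2c3* ratios were 2.16, 1.87 and 1.72 in the same order of lines, with intervals that include 0. As shares of the reads of the 3 genes, *Prl2c3* took 0.727% in shControl cells at day 0 (95% binomial interval 0.462% to 1.09%, 3162 reads). It took 2.91% (shKDM4D, 2.57% to 3.29%, 8515 reads), 2.10% (shNFIB, 1.68% to 2.59%, 4000 reads) and 2.27% (shMLL1, 2.05% to 2.51%, 16939 reads). At day 5 the *Prl2c3* share was between 1.36% and 2.07% in the 4 lines, with wider intervals. The *Prl2c5* share at day 0 was between 0.0949% and 0.294%. The shControl library at day 0 was hence the lowest in *Prl2c3* share, and its interval did not overlap those of the 3 knockdown lines at day 0. The assignment of reads between the copies was made by the authors' counting, and its part in this difference was not tested. With the reads of the 3 genes summed, the ratios of *Prl2c2* to shControl cells hardly moved. They went to 1.88, 0.85 and 1.90 at day 0 and to 1.89, 1.32 and 1.12 at day 5. *Prl2c2* held between 96.8% and 99.2% of these reads in each library, so that summing could move its ratios little.

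**Figure D4:**
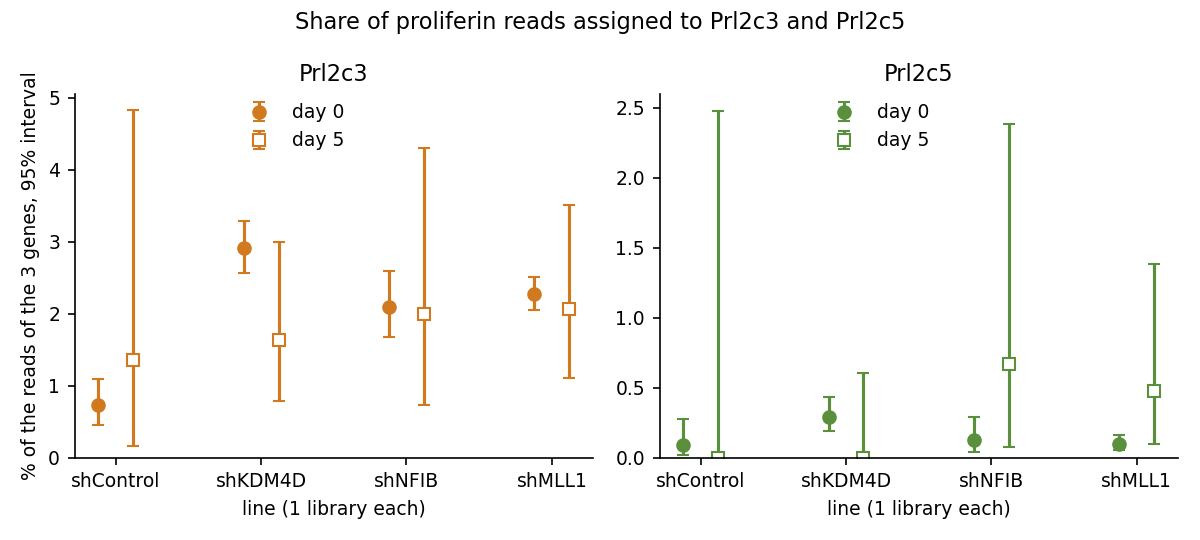
Share of the reads of the 3 genes that was assigned to *Prl2c3* (left) and *Prl2c5* (right), in percent, by line and day (filled circles, day 0, and open squares, day 5), with exact 95% binomial intervals. The *Prl2c3* share at day 0 is 0.727% in shControl cells and between 2.10% and 2.91% in the knockdown lines.

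The rest of the prolactin family was close to silent. Of the other 23 family genes listed, none had an RPKM over 1 in a library, and the highest was *Prl7a1* with 0.158 in shKDM4D cells at day 0. *Prl7a1* had 22 reads in the 8 libraries together. *Prl7d1*, whose upstream sequence is printed above, had 8 reads in the 8 libraries and an RPKM of at most 0.0333, and *Prl* itself had 0. The summed level of the 23 genes was between 0.0331 and 0.245 RPKM. Trophoblast markers were at the same floor. *Hand1* and *Cdx2* had 0 reads in every library, the 9 markers together had between 0 and 5 reads per library, and their summed level was at most 0.0455 RPKM. Of 10 MSC markers, 9 had an RPKM over 1 in a library, and the summed level of the 10 was between 2136 and 2773 RPKM, with *Col1a1* between 530.0 and 953 and *Vim* between 984 and 1512 RPKM. *Nt5e* stayed at or below 0.0218 RPKM, and *Thy1* was at 25.0 (shControl) and 11.8 (shMLL1) at day 0 but at 0.0171 (shKDM4D) and 0.0179 (shNFIB), so that the lines differed before induction in a defining MSC marker. The targeted genes were lower in 2 of the knockdowns, *Nfib* at 9.92 RPKM in shControl and 2.31 (shNFIB) at day 0 and *Kmt2a* at 5.17 and 2.00 (shMLL1), while *Kdm4d*, with at most 15 reads in a library, was covered too thinly for such a check.

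*Igf2r*, the mannose 6-phosphate receptor that binds proliferin, was between 13.8 and 38.5 RPKM, with the lowest value in shMLL1 and the highest in shKDM4D cells. *M6pr*, the smaller receptor for the same sugar, was between 16.4 and 23.2 RPKM. Neither changed by more than 2-fold in any of the 10 comparisons. Over all genes at most 20.4% were higher and at most 8.56% lower in any of them, so that nothing is read from this. *Prlr*, the prolactin receptor, was at most at 0.0741 RPKM.

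Among the AP-1 subunits, 6 of 7 genes had an RPKM over 1 in a library. *Fosl1*, which encodes the Fos family member FRA1, had the pattern most like *Prl2c2* among them. Its RPKM at day 0 was 21.2 (shControl), 38.0 (shKDM4D), 39.5 (shNFIB) and 44.7 (shMLL1), and at day 5 it was 11.7, 9.49, 8.14 and 10.0. Its values in the knockdown lines were thus above shControl cells at day 0, by more than 2-fold in shMLL1 cells, and below them at day 5, whereas *Prl2c2* was above them at both days. *Fos* went the other way, from between 0.0319 and 0.223 RPKM at day 0 to between 1.05 and 3.23 at day 5. From day 0 to day 5, those of the 6 subunits past 2-fold were *Fos* (higher) in each line and *Fosl1* (lower) in the 3 knockdown lines. *Fosb*, the subunit under an RPKM of 1, was at most at 0.373 RPKM and had log2 changes of 2.96 (shControl), 3.14 (shKDM4D), 2.56 (shNFIB) and 2.95 (shMLL1), from between 4 and 10 reads at day 0. Against shControl cells, *Fos* was more than 2-fold higher in each knockdown line at day 0, with few reads, and lower in shNFIB cells at day 5. *Jun*, *Junb*, *Jund* and *Fosl2* stayed within 2-fold in all 10 comparisons, with *Jund* the most abundant at between 33.6 and 61.1 RPKM. The glucocorticoid receptor gene *Nr3c1* was between 15.2 and 23.1 RPKM and stayed within 2-fold as well. Over all genes between 12.6% and 20.4% were higher and between 4.96% and 8.56% lower for day 5 over day 0. Against shControl cells between 1.67% and 5.54% were higher and between 4.02% and 7.43% lower. Most genes thus stayed within 2-fold, and nothing is read from these genes doing so. The 2 common targets of the glucocorticoid receptor differed between the lines. *Tsc22d3* went from 5.22 to 16.2 RPKM in shControl, 5.24 to 10.96 (shKDM4D), 6.57 to 13.4 (shNFIB) and 3.35 to 26.8 (shMLL1). *Fkbp5* went from 4.90 to 17.1 (shControl) and from 5.55 to 20.9 (shMLL1), against 4.03 to 5.48 (shKDM4D) and 2.89 to 4.03 (shNFIB).

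Proliferation genes were lower at day 5, as the proliferins were. All 6 genes of the list were lower by more than 2-fold in shControl and shKDM4D cells, 4 of 6 (shNFIB) and 5 of 6 (shMLL1), and none was higher. Over all 11513 genes the shares lower by more than 2-fold were the 8.56%, 8.44%, 4.96% and 6.89% given above. The median log2 change of the list was -1.25, -1.55, -1.18 and -1.35 (with 0.1 added to each RPKM), against 0.03, 0.03, 0.09 and 0.17 over all genes. The proliferation marker *Mki67* went from 76.7 to 30.1 RPKM in shControl cells, 112 to 35.0 (shKDM4D), 119 to 29.5 (shNFIB) and 113 to 31.6 (shMLL1). The S phase cyclin *Ccna2* went from 36.9 to 13, 56.1 to 18.8, 57.5 to 20.6 and 53.6 to 20.96. At day 0 none of the 6 genes differed by more than 2-fold from shControl cells in a knockdown line. Over all genes 1.98% (shKDM4D), 2.95% (shNFIB) and 1.67% (shMLL1) were higher and 4.26%, 6.05% and 7.43% lower, so that nothing is read from this count. The median log2 ratio of the list was 0.52, 0.64 and 0.50, against -0.001, 0.03 and -0.07 over all genes (with 0.1 added to each RPKM). *Prl2c2* was more than 2-fold higher in shKDM4D and shMLL1 cells. At day 5 the replication gene *Mcm2*, 1 of the 6, was more than 2-fold higher in shMLL1 cells (14.3 against 6.95 RPKM). Adipocyte markers moved at the same time. Their summed level over 7 genes rose from 10.9 to 693 RPKM in shControl cells and reached 35.3 (shKDM4D), 12.01 (shNFIB) and 12.4 (shMLL1), whereas *Prl2c2* fell in all 4 lines. The part of proliferation and of adipocyte differentiation in the *Prl2c2* values was not tested.

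The expressed genes around the proliferin copies changed less than *Prl2c2*. Of 8 other protein coding genes within 500 kb of a copy, 6 had an RPKM over 1 in a library. *Gpr137b*, a lysosomal membrane protein gene 375 kb from *Prl2c2* (distance between gene centres), fell in each line, with log2 changes of -1.47, -1.28, -1.11 and -1.32 in shControl, shKDM4D, shNFIB and shMLL1 cells. *Heatr1*, a gene of ribosome biogenesis on the other side, changed by -1.30, -1.17, -0.67 and -1.25. *Lgals8*, a galectin gene that overlaps the end of *Heatr1* on the opposite strand, changed by 0.00, 0.05, 0.47 and 0.83. Whether the counting used strand is not given, so that reads from their overlap cannot be told apart. *Nid1*, which encodes a basement membrane protein, changed by -0.49, -0.50, -0.74 and -1.41, and *Lyst*, a lysosomal trafficking gene, by -0.15, -0.23, -0.03 and 0.01. *Ero1lb* changed by -0.56, -0.09, -1.01 and -0.545. Among these 6 genes the largest fall, -1.47, was smaller than the smallest fall of *Prl2c2*, -3.51. *Prl2c2* was picked in part for its fall in shControl cells, so that nothing is read from this contrast. Of the 6 neighbours, 2 (shControl), 2 (shKDM4D), 2 (shNFIB) and 3 (shMLL1) were lower by more than 2-fold at day 5. The shares over all genes were 8.56%, 8.44%, 4.96% and 6.89%. Against shControl cells none of the 6 was more than 2-fold higher in a knockdown line at either day. *Nid1* was more than 2-fold lower in shMLL1 cells at day 5 (-1.455). Over all genes between 1.67% and 5.54% were higher in these comparisons, so that nothing is read from the absence of higher neighbours. Of the 2 neighbours under an RPKM of 1, *Actn2* was at most at 0.0122 RPKM. *Edaradd* was at most at 0.137 RPKM, with between 1 and 25 reads per library. Its log2 changes of -2.996 (shControl), -1.95 (shKDM4D), -3.85 (shNFIB) and -0.39 (shMLL1) rested on 1, 4, 1 and 19 reads at day 5, and at day 5 its ratio to shControl cells reached 3.27 in shMLL1 cells, from 19 reads against 1.

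**Figure D5:**
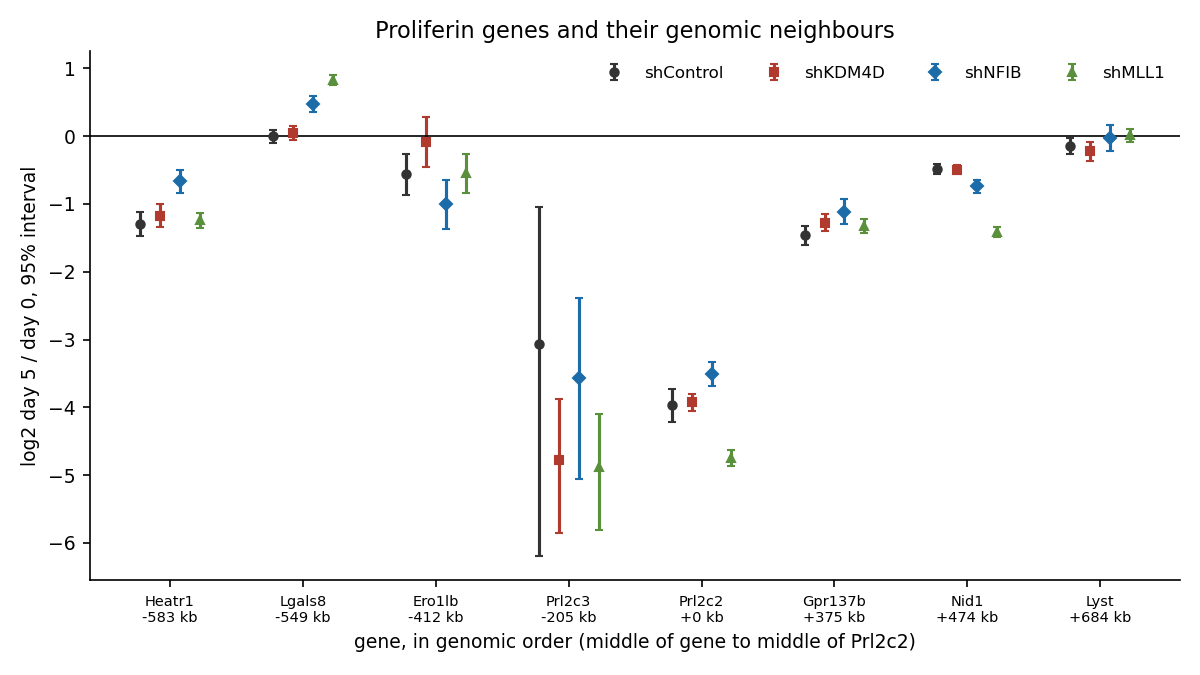
Log2 ratio of day 5 to day 0, with 95% intervals for counting error, for *Prl2c2*, *Prl2c3* and the 6 neighbouring genes with an RPKM over 1 in a library, in genomic order with the distance between gene centres in kb. The neighbours lie between -1.47 and 0.83, and *Prl2c2* and *Prl2c3* between -4.89 and -3.06.

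The genes whose levels were most alike to *Prl2c2* over the 8 libraries were *Gk*, *Clspn*, *Sart1*, *Dhx16* and *Anapc1*, by Pearson's r of log2(RPKM + 0.1). The values of r were 0.995, 0.991, 0.991, 0.990 and 0.987 among 11510 genes. The likeness is one of shape and not of size. *Gk*, the glycerol kinase gene, moved between 0.849 and 1.95 RPKM while *Prl2c2* moved between 6.88 and 397. *Clspn*, which encodes the replication checkpoint protein claspin, moved between 2.54 and 16.2 RPKM. Of the proliferation genes, *Ccna2* (r = 0.974, place 33), *Ccnb1* (0.972, place 47) and *Mki67* (0.969, place 72) stood high in the same order. The others of that list, *Mcm2* (0.911, place 571), *Cdk1* (0.890, place 751) and *Top2a* (0.852, place 1093), stood lower. *Fosl1* stood at place 383 (0.931), and *Fos* had an r of -0.86. The 8 points are not independent, as they come in pairs of days from 4 lines, and 383 genes had an r of at least 0.931.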

How the data were processed

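RNA-seq libraries of 4 lines at 2 days were analysed, with 1 library per condition. Reads were aligned by the authors to GRCm38/mm10 in CLC Genomics Workbench (release 11.0.1), and they deposited 1 RPKM value for each gene and library. Whether the counting used strand, and how it placed reads that match several genes, is not given in the sources used here. Exon lengths of GENCODE M21 turned RPKM into reads, and between 96.2% and 96.5% of the values came out within 0.02 of a whole read. These reads gave exact Poisson, conditional and binomial 95% intervals (Python 3.11.15, scipy 1.17.1), with a normal interval on the log scale for differences between changes. Simulated shControl libraries with known answers were used to check the recovery of reads and the intervals of ratios. They were made with the same exon lengths and with counting error only. The check thus does not cover wrong exon models, reads that match several genes or spread between libraries. No p-value was computed. Log2 ratios used no pseudocount, and genes were counted as higher or lower when past 2-fold, among those with an RPKM over 1 in a library. The text names the 3 genes, lists of related, regulatory, marker and neighbouring genes with their highest or changed members, and the 5 genes of most similar pattern. The members and lists were chosen with earlier results of these data known. Alternatives summed the copies, added 1 to RPKM or rescaled the libraries.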

Additional observations from a re-analysis of the deposited data

How the results depend on the processing

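No direction of a *Prl2c2*, *Prl2c3* or *Prl2c5* ratio was reversed under any alternative. For *Prl2c5* this covers only the 5 ratios with reads in both libraries. Adding 1 to each RPKM cannot reverse a direction, so that nothing is read from that alternative here. With the reads of the 3 copies summed, or with 1 added to each RPKM, all 10 *Prl2c2* ratios stayed within their counting intervals. For the sum little else was possible, since *Prl2c2* held between 96.8% and 99.2% of these reads in each library. Quantile normalization moved the *Prl2c2* ratio to -3.74 for shNFIB day 5 over day 0, and at day 0 to 0.93 for shNFIB and 1.81 for shMLL1 over shControl cells. Median-of-ratios scaling moved it to -4.96 for shMLL1 day 5 over day 0 and to 1.97 for shMLL1 over shControl cells at day 0. The ratio to *Gapdh* moved it to -3.46 for shKDM4D and -4.07 for shNFIB day 5 over day 0, to 1.44 for shKDM4D, 1.47 for shNFIB and 1.67 for shMLL1 over shControl cells at day 0, and to 0.74 for shMLL1 over shControl cells at day 5. With the ratio to *Gapdh* the median log2 ratio of all genes was 0.67 for shNFIB over shControl cells at day 0, against 0.03 as deposited. Adding 1 to each RPKM, which understates ratios of low genes, moved *Prl2c3* to -0.60, -2.95, -1.75 and -2.75 for day 5 over day 0 in shControl, shKDM4D, shNFIB and shMLL1 cells, and to 2.66, 1.40 and 2.36 for shKDM4D, shNFIB and shMLL1 over shControl cells at day 0. It moved *Prl2c5* to -0.37 for shMLL1 day 5 over day 0 and to 0.93 for shKDM4D over shControl cells at day 0. The numbers of genes past 2-fold moved by over 1.5 times in all 20 counts with no RPKM filter or with 1 added to each RPKM, in 5 with a filter at an RPKM of 2 and in 1 with median-of-ratios scaling. In shControl cells, 986 genes were lower at day 5, against 2642 without the filter and 581 with 1 added. The 793 lower genes of shMLL1 cells became 1219 with median-of-ratios scaling. No paired analysis was run. For a knockdown against shControl cells none was possible because each condition has 1 library, and for the same reason no replicate could be left out. The 2 days are paired within each line, but a fit of day with the 4 lines as blocks was not run. It would treat the 4 different lines as replicates. Depth limits *Prl2c5* and the day 5 values of *Prl2c3*, with at most 25 and 13 reads.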
